A study of Mus musculus with 6 samples.

Results

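The EWI family is a small set of immunoglobulin-superfamily membrane proteins whose mouse genes are Cd101, Ptgfrn, Igsf8 and Igsf3. The family was selected on Tc17 minus Tc1 differences in these data, so its own differences are given as a description. All 4 were taken by exact gene symbol from the platform annotation, and each had 1 probe set, which made 4 of the 22180 genes and 4 of the 41345 probe sets measured. They were examined on 6 single-colour Affymetrix arrays of mouse splenic CD8+ T cells driven towards Tc17 or Tc1. Sorted naive CD8+ T cells of both groups were stimulated with anti-CD3 (1 µg/ml) and anti-CD28 (3 µg/ml) over 4 days. Tc17 cultures had IL-6 and TGF-beta for 3 days and Tc1 cultures had IL-12 for the same time, and both then had IL-2 for 1 day. Each group had biological samples 1 and 2 and an array titled as a technical replicate with the number 2. That array was read as a technical array of sample 2, so n = 2 samples per group. No label names the strain, the age or whether samples came from separate animals, so spreads and p-values measure only the spread between these samples. Values are RMA intensities on the log2 scale as the authors deposited them, and a difference is Tc17 minus Tc1.

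EWI proteins share a Glu-Trp-Ile motif in an extracellular immunoglobulin domain. Several of them sit in the membrane beside tetraspanins, the small 4-span proteins such as CD9 and CD81 that organise receptors into clusters, and through ezrin-radixin-moesin proteins they can be linked to the actin skeleton. CD101 is known from myeloid cells and from subsets of T cells, among them regulatory, exhausted and, in human, tissue-resident memory T cells, and ligating it in human T cells was described to lower calcium flux and IL-2 production.

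Cd101 and Ptgfrn are direct neighbours on mouse chromosome 3. In the RefSeq gene order (assembly GRCm38.p6) both lie on the minus strand with 0 annotated genes between them, and Igsf3 follows on the plus strand beyond 8 other annotated genes, 2 of them protein-coding. Igsf8 is on chromosome 1. The 250 bases upstream of the RefSeq start of the neighbouring pair are shown because these are the members with the largest differences below. They are written 5′ to 3′ on the gene's strand from GRCm38.p6, at chr3:101029554-101029803 (minus) for Cd101 and chr3:101110167-101110416 (minus) for Ptgfrn, with CG dinucleotides in capitals.
Cd101: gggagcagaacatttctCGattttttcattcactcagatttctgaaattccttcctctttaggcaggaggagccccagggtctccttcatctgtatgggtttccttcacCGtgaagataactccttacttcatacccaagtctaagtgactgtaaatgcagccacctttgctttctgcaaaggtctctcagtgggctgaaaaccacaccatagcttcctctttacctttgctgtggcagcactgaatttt
Ptgfrn: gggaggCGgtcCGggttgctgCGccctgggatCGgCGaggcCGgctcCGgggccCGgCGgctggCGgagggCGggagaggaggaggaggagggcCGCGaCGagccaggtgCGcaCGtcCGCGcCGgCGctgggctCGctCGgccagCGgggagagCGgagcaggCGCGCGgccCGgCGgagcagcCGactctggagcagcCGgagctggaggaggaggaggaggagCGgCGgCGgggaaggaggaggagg

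The upstream windows of the pair differ in composition. That of Cd101 holds 2 CG dinucleotides and 45.2% G and C, against a median of 6 CG and 52.4% over 32536 RefSeq windows of the same length. That of Ptgfrn holds 34 CG and 79.2% G and C, more CG than 96.4% of those windows; the Igsf8 and Igsf3 windows hold 21 and 27. On either strand, TTCNNNGAA (a STAT motif, in 7.04% of all windows), TGANTCA (AP-1, 6.73%) and TATAAA (12.3%) had no match in any of the 4 windows. CAGAC (SMAD, in 42.2% of windows) matched 1 time for Igsf8 and in no other member. GGGCGG (a GC box, 33.0% of windows) matched 1 time for Ptgfrn, 4 times for Igsf8, 5 times for Igsf3 and not for Cd101. A match describes letters and not a bound site.

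Cd101, which encodes the CD101 glycoprotein, was the member with the largest difference. Its intensity was 9.74 in Tc17 sample 1, 10.17 in Tc17 sample 2 and 10.22 on the technical array of that sample, against 6.54 in Tc1 sample 1, 6.52 in Tc1 sample 2 and 6.58 on its technical array (log2). All 3 Tc17 arrays were high and all 3 Tc1 arrays low, and 3.16 log2 units separated the lowest Tc17 array from the highest Tc1 array. The means were 9.97 ± 0.32 in Tc17 and 6.55 ± 0.0060 in Tc1 (log2, SD, n = 2 each). The difference was 3.42 ± 0.17 (SE; 95% interval of the limma fit 2.99 to 3.86), a 10.7-fold ratio of intensities and the 19th largest increase of 22180 genes. Within Tc17, sample 1 was 0.46 log2 units below the mean of the sample 2 arrays, while the technical array differed from its sample by 0.049. The Tc1 level was a little above the array medians, which ran from 6.04 to 6.09; the data hold no detection calls, so the ratio is one of intensities. In a bulk culture, more cells with the transcript and more transcript per cell cannot be told apart.

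Ptgfrn, also called EWI-F, encodes a partner of CD9 and CD81 that lowers ligand binding by the prostaglandin F receptor. Its intensity was 9.95 in Tc17 sample 1, 10.26 in Tc17 sample 2 and 10.05 on the technical array, against 7.46, 7.47 and 7.29 on the matching Tc1 arrays (log2). The groups did not overlap, with 2.49 log2 units between the lowest Tc17 and the highest Tc1 array. The means were 10.05 ± 0.14 in Tc17 and 7.42 ± 0.059 in Tc1 (log2, SD, n = 2 each). The difference was 2.63 ± 0.10 (SE; 95% interval 2.37 to 2.90), a 6.21-fold ratio and the 38th largest increase. The technical arrays lay below their samples in both groups, by 0.21 in Tc17 and 0.18 in Tc1. Sample 1 minus the mean of the sample 2 arrays, technical array included, was −0.20 in Tc17 and 0.083 in Tc1.

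Igsf8, or EWI-2, encodes a partner of CD9, CD81 and CD82 that was described to restrain cell migration. It measured 7.37, 7.07 and 7.16 in Tc17 sample 1, sample 2 and its technical array, against 7.24, 6.90 and 6.96 in the matching Tc1 arrays (log2). The groups overlapped, and in both of them sample 1 was the highest array, by 0.26 in Tc17 and 0.31 in Tc1 over the mean of the sample 2 arrays. The difference of 0.16 ± 0.15 (SE) had a 95% interval of −0.24 to 0.56, which holds both a rise and a fall.

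Igsf3, the least studied member in T cells, measured 6.79, 6.64 and 6.82 in Tc17 sample 1, sample 2 and its technical array, against 6.47, 6.62 and 6.48 in the matching Tc1 arrays (log2). The arrays did not overlap, but the gap was only 0.028. The difference was 0.25 ± 0.078 (SE; 95% interval 0.049 to 0.46, not adjusted for the number of genes), or 1.19-fold. It was 0.18 when the technical arrays were left out. Igsf3 was 2256th and Igsf8 3606th in the order of increases, where Cd101 and Ptgfrn were 19th and 38th.

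**Figure D1:**
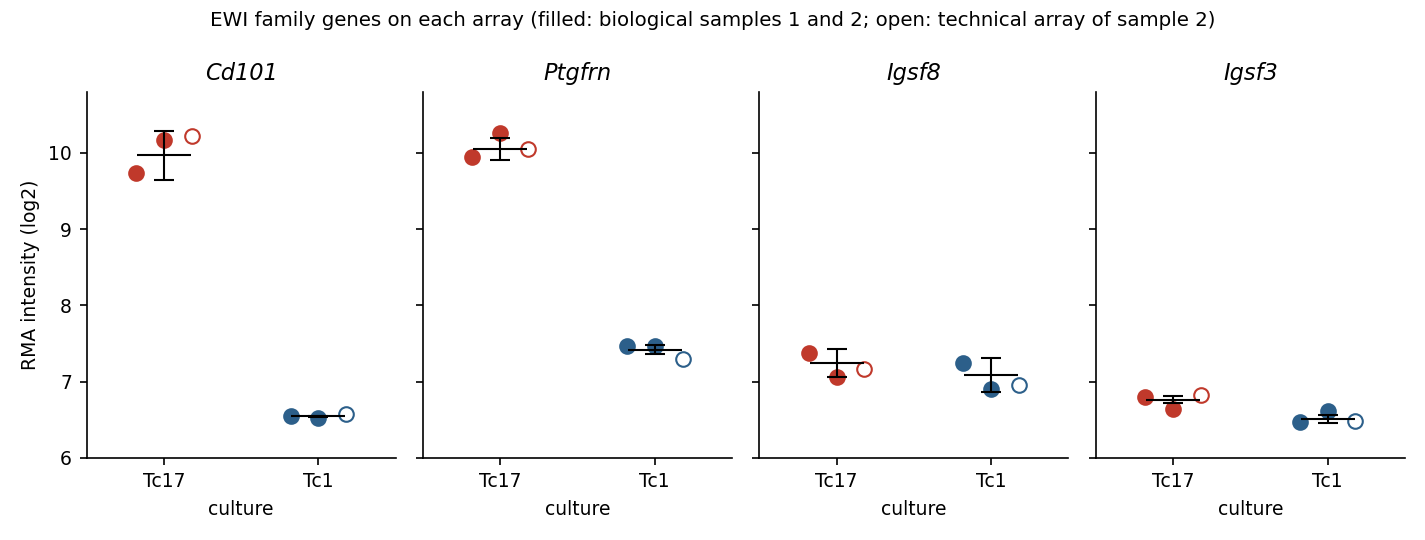
RMA intensity (log2) of the 4 EWI family genes on each array, Tc17 left of Tc1 in each panel; filled points are biological samples 1 and 2, open points the technical array of sample 2, and the black line and bars the mean and SD of the samples (n = 2). Cd101 and Ptgfrn separate by 3.16 and 2.49 log2 units between the nearest arrays, while Igsf8 overlaps and Igsf3 is separated by 0.028. The vertical axis starts at 6, and heights compare groups within a gene and not genes with each other.

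The family was selected on these differences, which bears on any call of its members. As a description, 2 of the 4, Cd101 and Ptgfrn, were among the genes with an adjusted p under 0.05 in limma's fit of all probe sets, against 1.01% of all probe sets and 1.58% of genes (0.992% higher and 0.591% lower in Tc17). The Tc17 arrays lay wholly above the Tc1 arrays for Cd101, Ptgfrn and Igsf3, a separation found in 15.2% of genes, where 14.5% separated the other way and 29.7% in either direction. Nothing is read from these shares. A fit without 1 sample leaves 1 sample in its group, which is assumed to vary like the samples of the other group, so a call lost there, here and below, also reflects that single source of spread. Without Tc1 sample 1 or Tc1 sample 2 Cd101 was not among the called genes, with differences of 3.42 and 3.43, and without Tc1 sample 2 Ptgfrn was not, with 2.59. Across every setting tried the difference lay between 3.19 and 3.65 for Cd101, 2.53 and 2.73 for Ptgfrn, 0.0036 and 0.32 for Igsf8 and 0.18 and 0.29 for Igsf3.

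**Figure D2:**
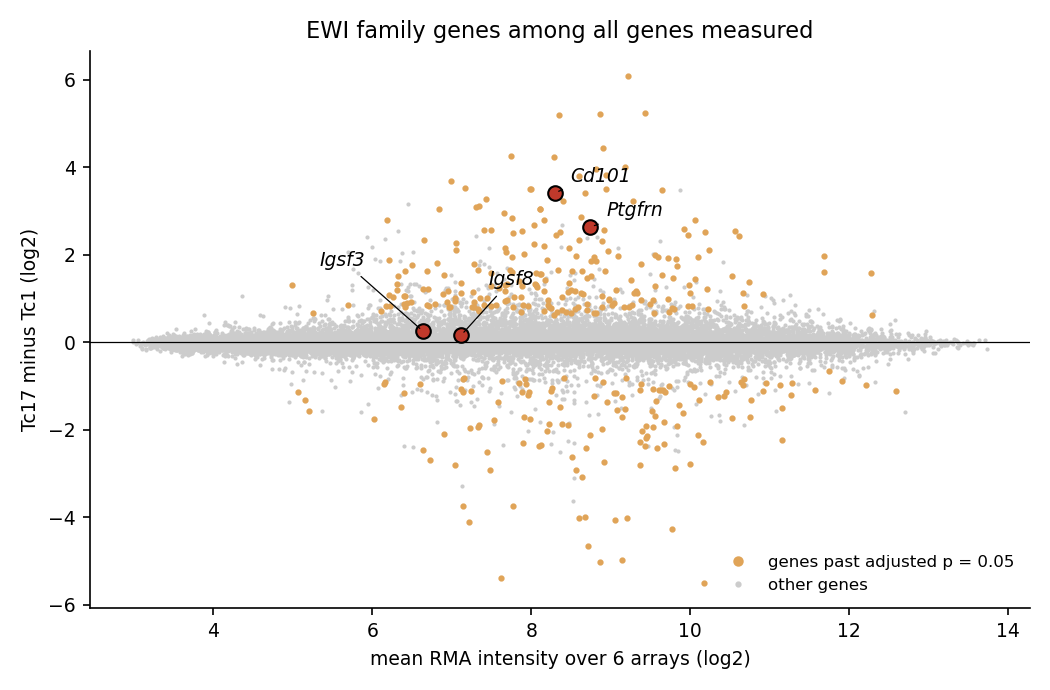
Tc17 minus Tc1 difference (log2) against the mean intensity over 6 arrays (log2) for 22180 genes, 1 probe set a gene; orange points passed an adjusted p of 0.05 in limma's test and grey points did not. Cd101 (3.42) and Ptgfrn (2.63) are among the larger increases, and Igsf3 (0.25) and Igsf8 (0.16) lie in the grey band around 0.

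Genes around the pair on chromosome 3 had smaller differences. The pair was selected on its differences in these data, so this contrast in size is a description and no test. Trim45 and Ttf2, on the Cd101 side, had differences of 0.0070 and 0.045, and Vtcn1, the gene of an inhibitory B7-family ligand, 0.10. Cd2, the T cell adhesion molecule gene that lies between Ptgfrn and Igsf3 and was the measured gene there, was 11.19, 11.22 and 11.27 on the Tc17 arrays, against 10.83, 10.59 and 10.84 on the Tc1 arrays (log2). These did not overlap, but its difference of 0.44 ± 0.083 (SE) did not pass (limma adjusted p = 0.134). Beyond Igsf3, Mab21l3, Slc22a15 (a solute carrier gene) and Nhlh2 had differences of −0.11, 0.72 and −0.0047. Of 21 measured neighbours in all, 0 passed in limma's test, against 1.58% of genes, and 4 had an unadjusted p under 0.05, against 15.9% of genes. Their differences ran from −0.75 (Tent5c) to 1.11 (Tspan2, also a tetraspanin gene), both ends smaller in size than that of Ptgfrn. Their median was −0.00058, against −0.013 for all genes. The arrays lay wholly higher in Tc17 for 4 neighbours and wholly lower for 2, against 15.2% and 14.5% of genes.

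The 20 measured neighbours of Igsf8 on chromosome 1 also included 0 calls by limma, with 4 at an unadjusted p under 0.05 (15.9% of all genes). The nearest on one side, Atp1a4, Casq1 and Pea15a, had differences of −0.13, 0.026 and −0.045, and the nearest on the other, the potassium channel genes Kcnj9 and Kcnj10 and the GPI-anchor gene Pigm, −0.10, −0.016 and 0.15.

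**Figure D3:**
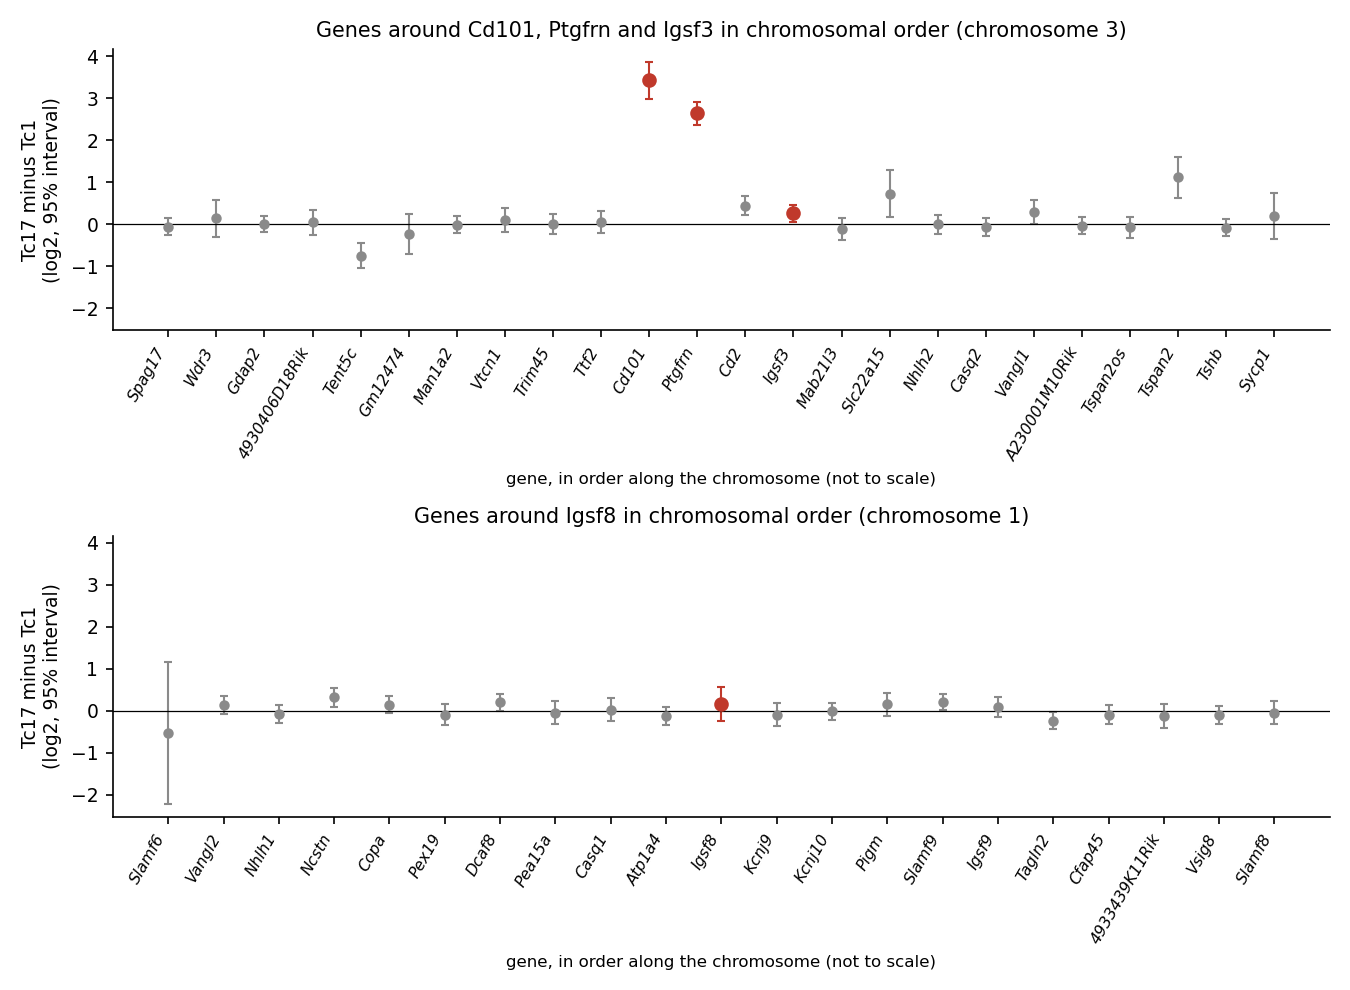
Tc17 minus Tc1 difference (log2) with its 95% interval from the limma fit for measured genes in chromosomal order, 10 on each outer side of the EWI genes, which are red; spacing is not to scale. Cd101 and Ptgfrn stand at 3.42 and 2.63, while the other chromosome 3 genes run from −0.75 to 1.11 and the chromosome 1 genes from −0.54 to 0.32.

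Genes with a pattern over the arrays most like that of Cd101 were sought by the root mean square distance between array values, each gene's own mean removed, over 6 arrays that share 2 groups and 4 samples. The nearest were Maf, a transcription factor gene, at 0.14 log2 units, then Tnfsf14 (the TNF-family ligand LIGHT) at 0.16, Muc13 (a transmembrane mucin) at 0.16 and Gpr15 (a colon homing receptor) at 0.21. Csgalnact1, an enzyme gene of chondroitin sulfate synthesis, Aff3, Ldlrad4 (an inhibitor of TGF-beta signalling) and Igfbp4 (an insulin-like growth factor binding protein) followed at 0.23 to 0.26. Ptgfrn was 20th of 22179 genes at 0.43, Igsf3 2403rd at 1.64 and Igsf8 3703rd at 1.68.

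The 8 genes had differences from 3.08 (Csgalnact1) to 3.68 (Gpr15), a range the choice by likeness fixes. Like Cd101, Csgalnact1 was lower in Tc17 sample 1 (8.50) than in the pair of sample 2 arrays (8.97 and 9.10), against 5.50 in Tc1 sample 1 and 5.91 and 5.84 on the arrays of Tc1 sample 2. Ldlrad4 had the same order in Tc17, with 10.10 in sample 1 and 10.50 and 10.48 on the arrays of sample 2, against 6.53, 7.37 and 7.08 in Tc1. Maf had that order with smaller gaps, at 10.63, 10.67 and 10.78 in Tc17, against 7.07, 7.17 and 7.37 in Tc1, and its other probe set had a difference of 2.98. Tnfsf14 (9.01, 9.09 and 9.20) and Muc13 (9.72, 9.74 and 9.80) also had the order of Cd101 in Tc17, with smaller gaps. Gpr15, Aff3 and Igfbp4 had the other order in Tc17. They measured 8.90, 9.78 and 11.48 in sample 1, against 8.76, 9.65 and 11.38 in sample 2 and 8.80, 9.65 and 11.41 on its technical array. The order within a group is part of the distance by which the 8 were chosen. Tc1 means of Tnfsf14, Gpr15 and Csgalnact1 lay below every array median, so their ratios hold for intensities.

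**Figure D4:**
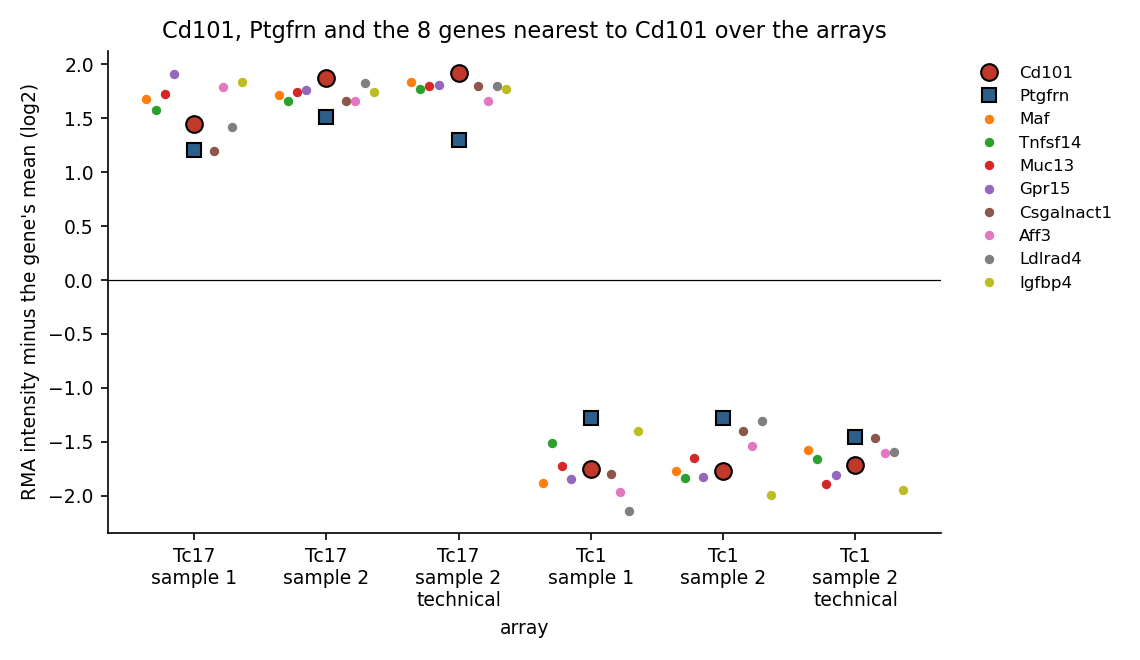
Array values with each gene's mean over 6 arrays removed (log2) for Cd101 (red circle), Ptgfrn (blue square) and the 8 genes nearest to Cd101 (small points), by array. All 10 are above 0 on the 3 Tc17 arrays and below 0 on the 3 Tc1 arrays, and Cd101 is lower in Tc17 sample 1 than on the 2 arrays of Tc17 sample 2.

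The tetraspanins, the membrane partners of the family, had differences from −0.67 to 2.21. Of 30 measured, Tspan32 and Tspan17 rose in Tc17 and 0 fell (2 of 30 called, against 1.58% of genes). An unadjusted p under 0.05 was found for 10, against 15.9% of genes. The arrays lay wholly higher in Tc17 for 11 and wholly lower for 2, against 15.2% and 14.5% of genes. Of the differences 19 were above 0, with a median of 0.067, against −0.013 for all genes. Tspan32 is expressed mainly in blood cells and measured 9.33, 9.31 and 9.33 on the Tc17 arrays, against 7.48, 6.97 and 6.53 on the Tc1 arrays (log2). Its Tc17 arrays were alike and its Tc1 arrays spread, and the difference was 2.21 ± 0.25 (SE, limma adjusted p = 0.0479). Tspan17, of the group that binds the ADAM10 protease, measured 8.15, 8.01 and 8.24 in Tc17, against 6.92, 6.69 and 6.92 in Tc1, a difference of 1.28 ± 0.081 (SE, limma adjusted p = 0.0130) with no overlap. In the 4 fits without 1 sample the difference of Tspan17 was 1.22 to 1.34 and did not pass (limma adjusted p = 0.0656 to 0.0965). The call of Tspan32 ended without Tc1 sample 2, Tc17 sample 1 or Tc17 sample 2 (differences of 1.85 to 2.58 and adjusted p = 0.0317 to 0.226 over the 4 fits), with quantile normalization and with robust moderation (adjusted p = 0.0509 and 0.0518). Tspan6 and Tspan2 had differences of 1.26 and 1.11 that did not pass (limma adjusted p = 0.148 and 0.105).

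Of 6 direct partners, 0 passed in limma's test and 2, Cd81 and Cd82, had an unadjusted p under 0.05, against 1.58% and 15.9% of all genes. Cd81, whose product binds both EWI-F and EWI-2, measured 11.57, 11.41 and 11.44 in Tc17, against 11.20, 10.71 and 10.59 in Tc1 (log2). The arrays did not overlap, but with an adjusted p of 0.341 in limma's test the difference of 0.57 ± 0.20 (SE) missed the threshold. It passed when the technical array was averaged with sample 1 instead, 1 of 17 alternatives (adjusted p = 0.0323 there, and 0.0323 to 0.771 over all of them). Cd82 had a difference of 0.36 ± 0.11 (SE, limma adjusted p = 0.276), and Cd9 one of −0.12 ± 0.095 (SE, limma adjusted p = 0.702), with 0.031 on its other probe set. The actin-linker genes Ezr, Rdx and Msn had differences of −0.040, 0.028 and 0.030, with 95% intervals between −0.23 and 0.25.

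**Figure D5:**
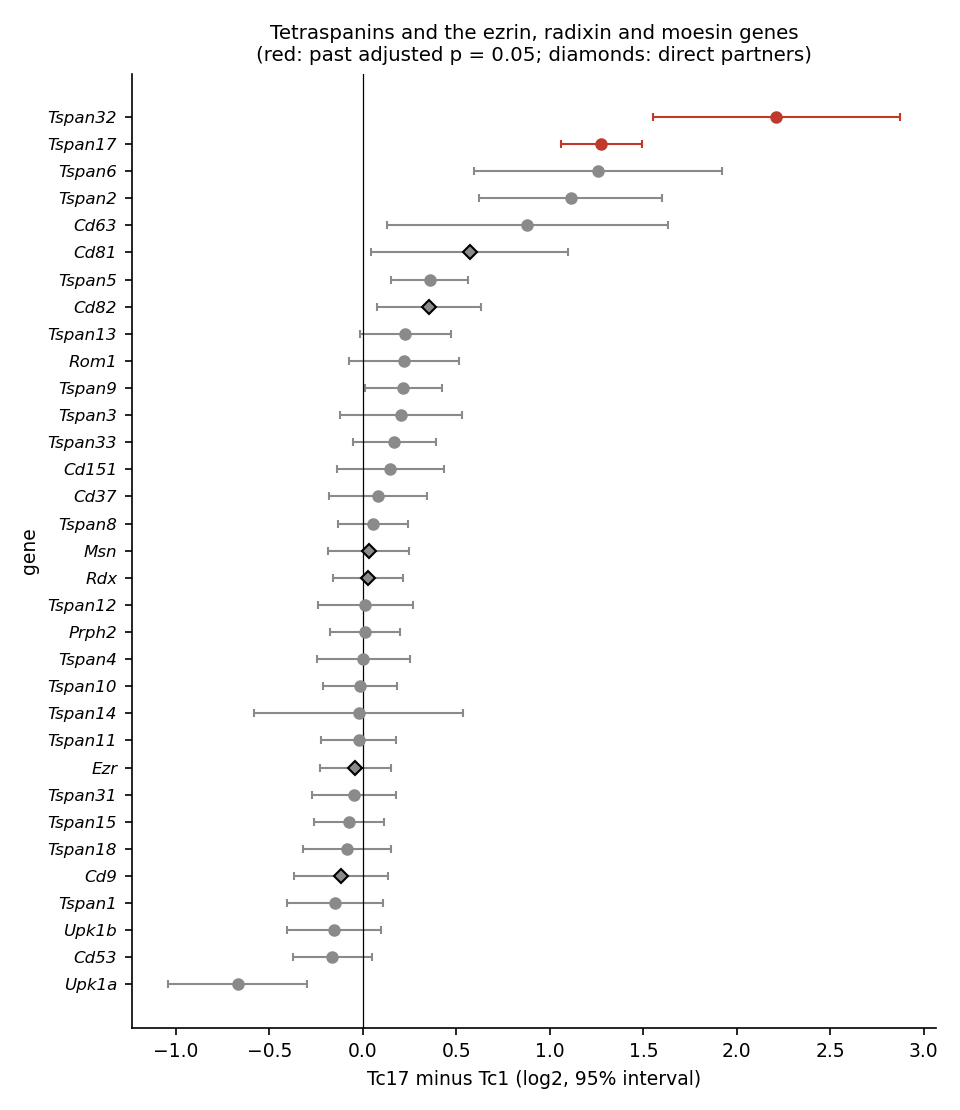
Tc17 minus Tc1 difference (log2) with its 95% interval from the limma fit for 30 tetraspanin genes and Ezr, Rdx and Msn; red genes passed an adjusted p of 0.05 and diamonds are direct partners of EWI proteins. Tspan32 (2.21) and Tspan17 (1.28) are the genes called, and Ezr, Rdx and Msn lie near 0.

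Receptors of the prostaglandin family, which EWI-F is named for, gave 1 call among 7 measured, against 1.58% of genes. Ptger3, a receptor gene for prostaglandin E2, measured 5.54, 5.40 and 5.91 in Tc17, against 7.04, 7.05 and 7.18 in Tc1 (log2). It fell, with no overlap and a difference of −1.48 ± 0.084 (SE, limma adjusted p = 0.0106), and its Tc17 mean was below every array median. In the 4 fits without 1 sample its difference was −1.54 to −1.42 and did not pass (limma adjusted p = 0.0574 to 0.0754). Ptgfr, the prostaglandin F receptor gene itself, had Tc17 and Tc1 means under all array medians, with a difference of 0.018. Ptger2 and Tbxa2r, at 0.87 and 0.46, missed the threshold with adjusted p of 0.144 and 0.134 by limma. Of the 7 receptors 3 had an unadjusted p under 0.05, against 15.9% of genes. The list's median was 0.018, against −0.013 for all genes.

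Genes of the calcium, NFAT and IL-2 route that human CD101 acts on gave 0 calls of 15 measured in limma's test, against 1.58% of genes, and 4 at an unadjusted p under 0.05, against 15.9% of genes. Ppp3ca, which encodes a catalytic subunit of calcineurin, had the largest difference. It measured 8.27, 8.29 and 8.48 in Tc17, against 9.57, 10.15 and 10.03 in Tc1, a difference of −1.50 ± 0.19 (SE, limma adjusted p = 0.0607) without overlap. It passed in 7 of 17 alternatives, with adjusted p of 0.00238 to 0.485 over all of them. Il2 had group means under all array medians, with a difference of 0.36. The list's median difference was 0.046.

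Surface and residency genes that are used beside CD101 to describe T cell states moved in different directions. Of 10 tissue residency markers 1 was called, against 1.58% of genes, and 7 had an unadjusted p under 0.05, against 15.9%. Of the differences 6 were below 0. The arrays lay wholly lower in Tc17 for 4 and wholly higher for 3, against 14.5% and 15.2% of genes. The gene called was Itgae, the CD103 integrin chain, which measured 10.94, 10.97 and 10.99 in Tc17, against 5.87, 5.56 and 5.80 in Tc1, a difference of 5.19 ± 0.096 (SE, limma adjusted p = 0.00162). Its Tc1 mean was below every array median. For Il10 and Dusp6, at −1.81 and −1.28, the adjusted p of limma was 0.0625 and 0.0622 and missed the threshold. Each passed in 7 of 17 alternatives (adjusted p over all of them 0.00368 to 0.489 for Il10 and 0.00237 to 0.485 for Dusp6). The list's median was −0.15. Of 6 recirculation markers 1 was called, against 1.58% of genes: Ccr7, the lymph-node homing receptor gene, rose (12.51, 12.62 and 12.48 in Tc17, against 11.18, 10.61 and 10.74 in Tc1), with a difference of 1.61 ± 0.18 (SE, limma adjusted p = 0.0473). Its call ended without Tc1 sample 2, Tc17 sample 1 or Tc17 sample 2 (differences of 1.35 to 1.86 and adjusted p = 0.0411 to 0.220 over the 4 fits), and with quantile normalization, robust moderation or the technical arrays left out (adjusted p = 0.0502, 0.0513 and 0.0532). Of the 6 recirculation markers 3 had an unadjusted p under 0.05, against 15.9% of genes. Klf3 and Klf2 had differences of 0.64 and −0.30 that did not pass, and the list's median was 0.23.

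Of 9 surface markers of exhausted CD8+ T cells, where CD101 and TIM-3 are used together in mouse, Havcr2 and Entpd1 fell (2 of 9 called, against 0.591% of genes called lower) and 0 were called higher. Havcr2, the TIM-3 gene, measured 5.98, 6.44 and 6.53 in Tc17, against 10.75, 11.70 and 11.81 in Tc1 (log2), the opposite direction to Cd101 on the same arrays. Its difference was −5.02 ± 0.37 (SE, limma adjusted p = 0.0182), and that of Entpd1, the CD39 gene, −2.04 ± 0.12 (SE, limma adjusted p = 0.0112). Both calls ended without Tc1 sample 2, Tc17 sample 1 or Tc17 sample 2. Over the 4 fits without 1 sample the difference of Havcr2 was −5.52 to −4.52 (limma adjusted p = 0.0389 to 0.0976) and that of Entpd1 −2.17 to −1.91 (limma adjusted p = 0.0411 to 0.0776). Of the 9 markers 7 had an unadjusted p under 0.05, against 15.9% of genes. The arrays lay wholly lower in Tc17 for 5 and wholly higher for 2, against 14.5% and 15.2% of genes. Cd244a and Slamf6 had differences of −0.81 and −0.54 that did not pass, and the list's median was −0.49, against −0.013 for all genes.

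The labelled cell type was checked against its markers. Cd8a, Cd8b1, Cd3d, Cd3e, Cd3g and Thy1 measured 11.62 to 13.14 on all arrays. Cd2 and Cd5 measured 10.59 to 11.27 and 10.63 to 11.24. Of these 8 CD8 T cell markers 0 were called by limma, against 1.58% of genes. The 2 at an unadjusted p under 0.05, against 15.9% of genes, were Cd2 and Cd5, with differences of 0.44 and 0.45. Because CD101 is also a myeloid protein, myeloid markers are given beside it. Of 8 macrophage and monocyte markers Lyz2 was called, with a difference of 3.53, against 1.58% of genes. In this list 4 had an unadjusted p under 0.05, against 15.9% of genes, and 7 differences were above 0. The arrays lay wholly higher in Tc17 for 5 and wholly lower for 0, against 15.2% and 14.5% of genes. The mean level of the 8, Lyz2 included, was 6.58 to 6.73 on Tc17 arrays and 6.04 to 6.19 on Tc1 arrays (log2). The list's median difference was 0.21, against −0.013 for all genes. Adgre1, Cd14, Fcgr1 and Mrc1 had group means under all array medians in Tc17 and in Tc1. Of 6 neutrophil markers Ly6g was called, with a difference of 2.52, against 1.58% of genes, and 1 had an unadjusted p under 0.05, against 15.9%. The other 5 had group means under all array medians in Tc17 and in Tc1. The mean level of the 6, Ly6g included, was 5.98 to 6.07 in Tc17 and 5.55 to 5.65 in Tc1. For this list the median difference was −0.0021. Among 7 dendritic cell markers 0 were called by limma, and 0 had an unadjusted p under 0.05, against 1.58% and 15.9% of genes. Of 4 B cell and 3 NK cell markers 0 were called by limma, against 1.58% of genes. In each of these lists 1 had an unadjusted p under 0.05, against 15.9% of genes. Of 4 regulatory T cell markers Foxp3 was called, with a difference of 3.95, against 1.58% of genes. The other 3, Ctla4, Ikzf2 and Il2ra, had differences of 0.52, −0.51 and −0.0055 that did not pass, and Cd4 had one of −0.057. The part of other cells in the Cd101 and Ptgfrn differences was not tested.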

How the data were processed

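Per the submitters' processing notes the authors made the deposited log2 intensities with RMA and Partek, with versions and roles not stated; the genome build is not given in the sources used here. RMA normalizes between arrays by quantiles. The members, lists and genes to name were chosen with earlier results of these data known.

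The technical array was averaged with biological sample 2 of its group. The test was that of limma 3.58.1 (lmFit and eBayes, under R 4.3.3), run on 2 against 2 samples, with Benjamini-Hochberg adjustment over 41345 probe sets, a threshold of 0.05 and no filter; 2 residual degrees of freedom were raised by 2.63 through moderation. The fit was tested on simulated data. Each gene stands for the brightest of its probe sets that carry 1 symbol, by the mean of 6 arrays (22180 genes). Intervals are moderated, at 95%. Gene order came from RefSeq (GRCm38.p6), where 21978 genes matched by Entrez identifier, and sequences from RefSeq promoters.

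Named were all members, direct partners and the 8 genes nearest to Cd101 without provisional symbols. Of the neighbours, those between the members, the 3 nearest on each side, any called and the ends of the chromosome 3 range were named. In each list up to 5 called members and the 2 uncalled with the largest differences were named. Called markers of other cells were named after their values were seen. Tables of proteins were not used here.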

Additional observations from a re-analysis of the deposited data

How the results depend on the processing

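Over all settings the difference of Igsf8 ran from 0.0036 to 0.32. That of Igsf3 was 0.18 with the technical array averaged with sample 1 and 0.18 with the technical arrays left out. The fit as reported called 418 probe sets (1.01%), 2 EWI genes, 7 of 78 genes of the 7 lists (8.97%) and 0 of 41 neighbours. Of all genes 1.58% were called. The EWI genes were selected on this contrast, so their counts here are a description. With 6 arrays as separate samples these were 2318, 2, 20 and 3; with the biological sample as a random block 2074, 2, 20 and 3; with the technical array averaged with sample 1 they were 1581, 2, 19 and 2. With the replicate number as a block (replicate block) they were 1535, 2, 17 and 3, the neighbours being Tent5c, Slc22a15 and Tspan2 and the list genes including Il10, Dusp6, Cxcr6 and Ppp3ca; the numbers are not shown to pair samples, and the correlation of same-numbered deviations was 0.31. Filters at 6 in 1 group and at the median level called 635 and 648 probe sets. Averaging the probe sets of each gene gave 14 list genes and 2 neighbours. The unmoderated test called 0 probe sets, 0 EWI genes and 0 list genes. Leaving out 1 sample, with the lone sample assumed to vary like the other group, gave 48 to 125 probe sets, 0 to 2 EWI genes, 1 to 5 list genes and 0 neighbours. The cause was not tested. With 2 samples per group and no detection calls, low intensities could not be told from background.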

Other observations

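Cd101 and Ptgfrn are set here beside other neighbouring pairs. They were selected on their differences in these data, so their place among such pairs is only a description. Of 21957 pairs of measured genes adjacent in chromosomal order, 36 had both genes called in the same direction, 17 higher and 19 lower in Tc17, and 1 pair had both called in opposite directions. In 3 pairs both genes were higher in Tc17 by at least the difference of Ptgfrn, a bound that Ptgfrn itself sets: Il17a and Il17f (5.21 and 6.09), Cd86 and Ildr1 (2.96 and 2.84), and Cd101 and Ptgfrn (3.42 and 2.63). Lower in Tc17 by more than that size were both genes of Serpinb6b and Serpinb9 and of Gzmk and Esm1. These counts describe the gene order and were not tested against chance.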
